A study of Mus musculus with 4 samples.

Results

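Replication-dependent histones are the core histones H2A, H2B, H3 and H4 and the linker histone H1 that a cell makes to package newly copied DNA. Their genes lie in clusters, and most of their mRNAs end in a conserved stem-loop instead of a poly(A) tail: the stem-loop binding protein SLBP binds that loop, the mRNA accumulates during S phase and it is degraded when DNA synthesis ends. A library primed with oligo-dT therefore reads these genes only in part, through transcripts that carry a tail or an internal run of A, and the counts do not show which. The histone transcripts described here were chosen by name, as every gene whose symbol starts with HIST1H, HIST2H, HIST3H or HIST4H, which gave 71 of the 36601 genes in the table.

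The cells were human CD45+ cells sorted from MDA-MB-231 tumors, a human triple-negative breast cancer line, grown in MISTRG mice. These animals carry human genes for the myeloid cytokines M-CSF, GM-CSF and IL-3, and had been irradiated as newborns and engrafted with human fetal liver CD34+ cells. The tumors came from untreated mice or from mice given maraviroc, a small-molecule drug, in the drinking water. The GEO labels name Mus musculus as the organism, but every gene in the table is a human gene. Hashtag antibodies marked 7 mice in each of 2 reactions, as the labels call them. Reaction 1 held 4 untreated and 3 maraviroc mice, and reaction 2 held 3 and 4. The treatment was read from the hashtag names, since the labels of the samples do not give it, and nothing in the labels says whether animals shared a CD34+ donor.

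Reaction 1 held 29120 barcodes and 133089612 gene UMIs, and reaction 2 held 13582 barcodes and 175447534. Barcodes with above 600 and at most 6000 genes and a mitochondrial share below 12.5% numbered 27645 and 10161, with a median of 2752 and 10742 UMIs per cell. Of these, 19817 carried 1 hashtag, 12316 were called doublets and 5673 negative, and 10174 of the doublets came from reaction 1. The libraries shared 136 barcodes, 0.467% and 1.0% of their own. Clusters were named from marker lists, and 11263 cells (56.8%) fell into NK-like, T-like, macrophage-like and tumor-like classes, while 5380 cells (27.1%) in clusters that scored low on every list, came near to more than 1 list or led with genes of another list stayed unnamed. Unnamed clusters of 705, 697, 444 and 280 cells scored highest on the macrophage list. Their leading genes included MT1G, HILPDA, LYVE1 and CXCL10 in that order, and they are not part of the macrophage-like class. An unnamed cluster of 2307 cells, 2172 of them from reaction 1, scored highest on the NK list.

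In 3 classes the markers of the class led in non-cycling cells: in non-cycling cells the NK list summed to a median of 18228 CPM (UMIs scaled to a fixed total per sum of cells) per mouse in NK-like cells, the T list to 3894 in T-like cells and the macrophage list to 7464 in macrophage-like cells. The NK list also summed to 1186 CPM in non-cycling T-like cells, and in cycling T-like cells it summed to a median of 1562 CPM (605 to 5103) beside 2788 CPM (2388 to 3888) of the T list, so that in the highest mouse it passed the T list. The tumor-like cluster was less clear. In non-cycling cells its own list of 10 keratin, caveolin and related genes summed to 2074 CPM (1201 to 3476 over 8 mice). All 10 were above 10 CPM. But the macrophage list summed to 1963 CPM there (142 to 2714, 9 of 9 genes above 10 CPM). The NK list summed to 1663 CPM (42.5 to 1995, 7 of 10). In the cycling sums of 2 mice the macrophage list led with a median of 2157 CPM (2060 to 2255). The NK list was at 1460 CPM (1278 to 1642) and the tumor list at 1453 CPM (1074 to 1831). CD45 sorting should remove tumor cells, 706 of the 767 cells came from reaction 1, and the part of doublets or free RNA in this cluster was not tested. Its values are given separately where they are shown by class, and fits over the 4 classes include it unless stated.

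Cycling cells were defined by at least 3 UMIs of TOP2A plus MKI67, a topoisomerase and a chromosome coat protein of dividing cells. By this definition 435 of 1469 NK-like cells (29.6%), 529 of 3363 T-like cells (15.7%), 900 of 5664 macrophage-like cells (15.9%) and 101 of 767 tumor-like cells (13.2%) were cycling. Cycling cells were deeper: the median was 12449 UMIs against 6426 in NK-like, 11972 against 5904.5 in T-like, 10781 against 4617 in macrophage-like and 4655 against 2478 in tumor-like cells. Counts were summed per mouse, class and state wherever a mouse gave at least 10 cells, and the sums were tested across mice.

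Histone transcripts were concentrated in the cycling cells. These were 17.4% of the cells of the 4 classes and held 27.2% of all their UMIs, but 68.6% of the histone UMIs. Without the tumor-like cells the figures were 17.8%, 27.5% and 70.2%. The share of histone UMIs was 84.2% in NK-like, 69.4% in T-like, 56.7% in macrophage-like and 28.7% in tumor-like cells. The median cell held 66 histone UMIs when cycling and 6 when not in the NK-like class, 49 and 5 in the T-like, 14 and 3 in the macrophage-like and 13 and 3 in the tumor-like class. Cells with at least 1500 UMIs were also thinned to 1500, with the state still called on the full counts. This left out 620 of 4764 non-cycling macrophage-like and 144 of 666 non-cycling tumor-like cells, and fewer in each other group. The mean was then 11.0 against 1.83 in NK-like and 9.40 against 1.64 in T-like cells. It was 4.32 against 1.28 in macrophage-like and 4.12 against 2.56 in tumor-like cells. The difference was thus present at equal depth in the cells kept.

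The sum over the 71 genes rose in the cycling cells of every mouse. In NK-like cells it ran from 879.8 through a median of 1095 to 1588 CPM in non-cycling cells and from 4839.6 through 7131 to 10778 CPM in cycling cells (n = 14 mice each). In T-like cells it ran from 918 through 1066 to 1534 CPM (n = 12) and from 4831 through 6225 to 9518 CPM (n = 10). In macrophage-like cells it ran from 363 through 544 to 1058 CPM and from 1442 through 2598 to 3909 CPM (n = 14 each). The states did not overlap in any of these 3 classes. Within a mouse the cycling cells were higher by a median of 6.87 times in NK-like cells (3.77 to 8.86 over 14 mice), 6.03 times in T-like cells (4.36 to 9.49 over 10 mice) and 4.83 times in macrophage-like cells (2.91 to 7.36 over 14 mice). Tumor-like cells had the highest non-cycling sums, from 1045 through 1606 to 2848 CPM (n = 8), and cycling sums of 3272 and 3357 CPM in the only 2 mice with enough cells, both untreated and from reaction 1, which is 1.57 and 1.92 times the non-cycling cells of the same mice.

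**Figure D1:**
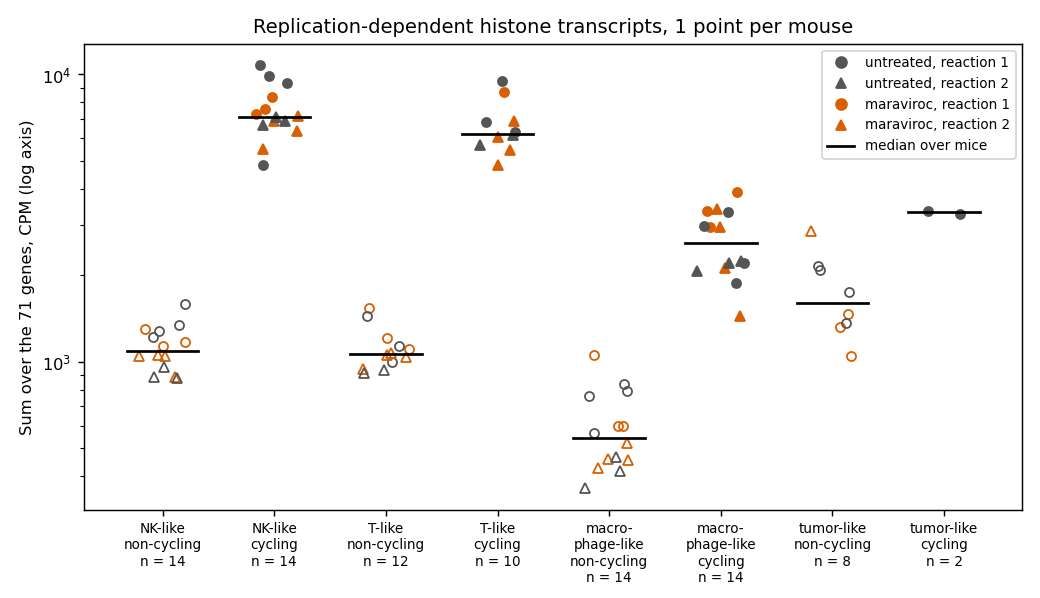
Sum of the 71 histone genes in CPM (log axis) in each mouse, by class and state, with open symbols for non-cycling and filled symbols for cycling cells, color for the treatment, circles and triangles for reactions 1 and 2, and a line at the median. In NK-like, T-like and macrophage-like cells every cycling sum lies above every non-cycling sum, and the 2 cycling tumor-like sums stand at 3272 and 3357 CPM.

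The level differed between reactions as well. The median non-cycling sum was 1282 CPM in reaction 1 and 960.5 CPM in reaction 2 in NK-like cells, 1176 and 992 CPM in T-like cells and 760.5 and 455 CPM in macrophage-like cells, and the cycling sums had the same order, with 8346 and 6888, 7760 and 5890, and 2972 and 2207 CPM. Cells of reaction 1 were also shallower. Non-cycling medians were 5975 and 6807 UMIs in NK-like, 5024 and 6148.5 in T-like and 2746.5 and 12140 in macrophage-like cells. Cycling medians were 11718.5 and 12714, 10699 and 12226, and 5210.5 and 16540 UMIs. The state is a cut in raw UMIs, and the part of depth in these differences was not tested. Each mouse was in 1 reaction, and the comparisons of states and classes were made within mice. Which of them change within 1 reaction is given with the result.

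The classes also differed in how much histone transcript a cycling cell held beside its proliferation genes. TOP2A plus MKI67, which defined the state, had median levels of 1425 CPM in cycling NK-like, 1218 in T-like and 1005 in macrophage-like cells, and 1017 and 1079 in the 2 tumor-like sums. The histone sum was a median of 4.89 times that level in NK-like cells (3.48 to 7.88), 4.93 times in T-like cells (4.04 to 7.22) and 2.45 times in macrophage-like cells (1.83 to 3.61), and 3.03 and 3.30 times in the tumor-like sums. These ratios are a description and were not tested. Their denominator holds the genes that selected the cells by a cut in raw UMIs, so selection and depth enter the ratios.

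A few genes made up most of the signal. HIST1H4C, which encodes histone H4, had the highest mean over mice (455 CPM), followed by the linker histone genes HIST1H1C (231 CPM), HIST1H1D (190 CPM) and HIST1H1E (127 CPM). These 4 held 51.5% and the 20 highest genes 86.2% of the histone UMIs. CPM from 3' reads are not divided by gene length, and the share of each mRNA that oligo-dT can prime is unknown, so this order is one of reads and not of molecules made. No kept cell with 1 hashtag held a UMI of HIST3H3, HIST1H2AA or HIST1H4G, and HIST2H3A, HIST2H3C and HIST1H2BA had 1 UMI each, all outside the 4 classes. HIST2H2AA3 and HIST2H2AA4, HIST2H3A and HIST2H3C, and HIST2H4A and HIST2H4B are near-identical copies, and how their reads were split between them is uncertain.

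Of the 71 genes, 56 passed the filter on low counts, which asks for enough reads in the smaller groups of sums and so can be met through the cycling cells alone, and 15 did not, with at most 149 UMIs each in the 4 classes. In edgeR's quasi-likelihood test with Benjamini-Hochberg adjustment over all genes, 54 of the 56 were higher in cycling than in non-cycling NK-like cells, where 11.2% of all tested genes were. The count was 52 in T-like cells (17.4% of all genes), 53 in macrophage-like cells (10.6%) and 3 in tumor-like cells (1.02%). None of the 56 was called lower in any class, while 12.9%, 16.8%, 22.2% and 0.857% of all genes were. Without the filter, 65 genes could be fitted and 55, 53, 53 and 10 were called higher. No share of all genes is given for the fit without the filter, so these counts are not set against it. The tumor-like count rests on the cycling cells of 2 mice and ran from 1 to 5 when a mouse was left out.

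Among the H4 genes, HIST1H4C ran from 126 through 185 to 321 CPM in non-cycling and from 1388 through 1980.1 to 3203 CPM in cycling NK-like cells. It ran from 101 through 135 to 271 and from 1092 through 1689.7 to 2718 CPM in T-like cells. It ran from 30.7 through 69.3 to 191 and from 359.5 through 600.4 to 1073 CPM in macrophage-like cells. The states did not overlap in these classes, and the fitted log2 fold changes were 3.42 ± 0.14 (SE), 3.58 ± 0.15 and 2.82 ± 0.13. In tumor-like cells HIST1H4C ran from 179 through 331 to 409 CPM (n = 8) against 737 and 1081 CPM, a log2 fold change of 1.24 ± 0.28 (edgeR's quasi-likelihood test, adjusted p = 0.00518). HIST4H4, an H4 gene outside the main cluster, rose in T-like cells by 0.91 ± 0.21 and did not pass the test in NK-like (0.27 ± 0.30) or macrophage-like cells (0.46 ± 0.24).

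The linker histone H1 binds the DNA between nucleosomes. HIST1H1C ran from 90.8 through 149 to 228 CPM in non-cycling and from 449 through 764 to 968 CPM in cycling NK-like cells, without overlap. It ran from 158 through 181 to 312 and from 533 through 671 to 1056 CPM in T-like cells, and from 35.8 through 68.8 to 151 and from 126 through 261 to 468 CPM in macrophage-like cells, where the ranges overlapped. Its log2 fold changes were 2.22 ± 0.18, 1.84 ± 0.19 and 1.55 ± 0.17. In tumor-like cells the non-cycling range of HIST1H1C was wide, from 172 through 231 to 1144 CPM, and took in both cycling values of 394 and 572 CPM, with a difference of 0.22 ± 0.40 that did not pass the test.

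HIST1H1D rose from a median of 156 to 703 CPM in NK-like cells (108 to 209 against 436 to 1027), from 151 to 605 CPM in T-like cells (82.8 to 187 against 434 to 835) and from 40.2 to 233 CPM in macrophage-like cells (18.1 to 86.9 against 96.7 to 480.2). HIST1H1E rose less, from 146 to 426 CPM in NK-like cells (111 to 217 against 343 to 599), from 104 to 342 CPM in T-like cells (71.8 to 134 against 241 to 465) and from 37.9 to 119.8 CPM in macrophage-like cells (23.5 to 69.1 against 61.3 to 188), with log2 fold changes of 1.49 ± 0.10, 1.63 ± 0.11 and 1.27 ± 0.11. HIST1H1B changed more than the other H1 genes tested in these classes: its median went from 19.9 to 424 CPM in NK-like, from 15.3 to 364 CPM in T-like and from 8.26 to 132 CPM in macrophage-like cells, or by 4.54 ± 0.27, 4.77 ± 0.27 and 3.20 ± 0.24 on the log2 scale. In tumor-like cells HIST1H1E was the only H1 gene called, at 39.7 through 75.3 to 125 CPM against 174 and 216 CPM (edgeR's quasi-likelihood test, adjusted p = 0.0289).

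**Figure D2:**
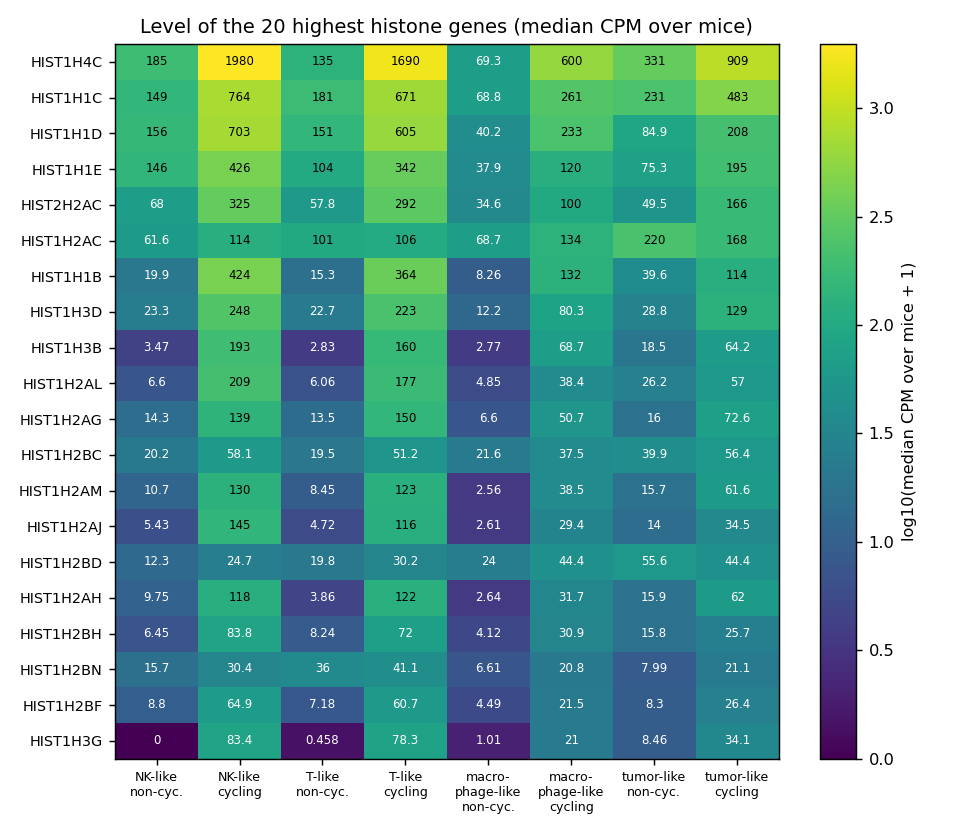
Median CPM over mice of the 20 highest histone genes (rows) in each class and state (columns), printed in each cell and colored by log10 of the median plus 1. HIST1H4C leads in every column of cycling cells, whereas HIST1H2AC has medians of 101 and 106 CPM in the 2 states of T-like cells.

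H2A and H2B form the dimers at the outside of the nucleosome. HIST2H2AC went from 28.4 through 68.0 to 114 CPM in non-cycling to 179 through 325 to 565 CPM in cycling NK-like cells. It went from 45.5 through 57.8 to 156 to 183 through 292 to 454 CPM in T-like cells, and from 19.7 through 34.6 to 56.7 to 60.2 through 100.3 to 200.3 CPM in macrophage-like cells. The states did not overlap in any of the 3, with log2 fold changes of 2.27 ± 0.13, 2.24 ± 0.13 and 1.58 ± 0.12. In tumor-like cells HIST2H2AC was at 35.7 through 49.5 to 109 CPM against 141 and 191 CPM, or 1.20 ± 0.34 (edgeR's quasi-likelihood test, adjusted p = 0.0403). HIST1H2AL changed more, by 4.73, 4.71 and 2.63, HIST1H2AJ by 4.63 in NK-like cells and HIST1H2AH by 4.90 in T-like cells.

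HIST1H2AC, another H2A gene, did not follow this pattern. In T-like cells it ran from 61.0 through 101 to 128 CPM in non-cycling and from 55.1 through 106 to 131 CPM in cycling cells, a log2 difference of 0.03 ± 0.18 that did not pass the test. It rose by 0.69 ± 0.18 in NK-like cells (median 61.6 to 114 CPM) and by 0.65 ± 0.15 in macrophage-like cells (68.7 to 134 CPM), with overlapping ranges in both. Non-cycling tumor-like cells held the most, from 113 through 220 to 918 CPM, against 146 and 191 CPM in the cycling sums. HIST3H2A, on a separate chromosome, was at a median of 20.2 and 24.7 CPM in NK-like, 19.5 and 25.2 CPM in T-like and 5.12 and 9.74 CPM in macrophage-like cells, and passed the test in none of them.

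Among the H2B genes, HIST1H2BD had medians of 12.3 and 24.7 CPM in NK-like, 19.8 and 30.2 CPM in T-like and 24.0 and 44.4 CPM in macrophage-like cells. HIST1H2BN was at 36.0 CPM in non-cycling and 41.1 CPM in cycling T-like cells, a difference of 0.15 ± 0.17 that did not pass the test, but rose by 0.75 ± 0.23 in NK-like and 1.66 ± 0.18 in macrophage-like cells. HIST2H2BE rose by 1.74 ± 0.26 in NK-like and 1.47 ± 0.22 in T-like cells, and its medians of 8.30 and 10.7 CPM in macrophage-like cells did not differ in the test. HIST3H2A, HIST1H2AC, HIST4H4, HIST1H2BD and HIST1H2BG were the 5 of the 56 genes whose log2 change was under 1 in NK-like, T-like and macrophage-like cells alike.

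Several H3 genes had large changes. H3 joins H4 in the tetramer at the core of the nucleosome. HIST1H3B rose from a median of 3.47 to 193 CPM in NK-like, from 2.83 to 160 CPM in T-like and from 2.77 to 68.7 CPM in macrophage-like cells, or by 5.32 ± 0.33, 5.47 ± 0.30 and 3.59 ± 0.25 on the log2 scale. HIST1H3G was at a median of 0 in non-cycling NK-like cells, with 7 UMIs in all, and at 83.4 CPM in cycling ones. Its medians were 0.458 and 78.3 CPM in T-like and 1.01 and 21.0 CPM in macrophage-like cells, and its fits of 6.06 ± 0.42, 6.20 ± 0.33 and 3.24 ± 0.30 depend on how such low counts are treated. HIST1H3F was fitted at 4.84, 6.08 and 2.96. In macrophage-like cells HIST1H3C (3.21), HIST1H1B (3.20) and the H2B gene HIST1H2BO (3.27) changed about as much, and HIST1H3A did not pass the test in T-like cells (0.28).

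By histone type, the sum of the H3 genes rose by a median within-mouse factor of 16.4 in NK-like, 13.5 in T-like and 10.3 in macrophage-like cells, and the sum of the H4 genes by 10.5, 11.6 and 8.04. The factors were 5.83, 5.49 and 3.44 for H2A, 5.09, 3.51 and 2.80 for H2B, and 4.91, 4.45 and 4.55 for H1. H1 genes were the largest type in non-cycling NK-like cells at 477 CPM, beside 248 for H2A, 209.8 for H4, 117 for H2B and 47.5 CPM for H3. In cycling NK-like cells H1 (2352 CPM) and H4 (2175 CPM) were about level, with 1373 for H2A, 759.8 for H3 and 507 CPM for H2B. In macrophage-like cells H1 went from 157 to 762 CPM and H4 from 87.3 to 709.9 CPM. All these sums are CPM over 3' reads and were not tested.

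**Figure D3:**
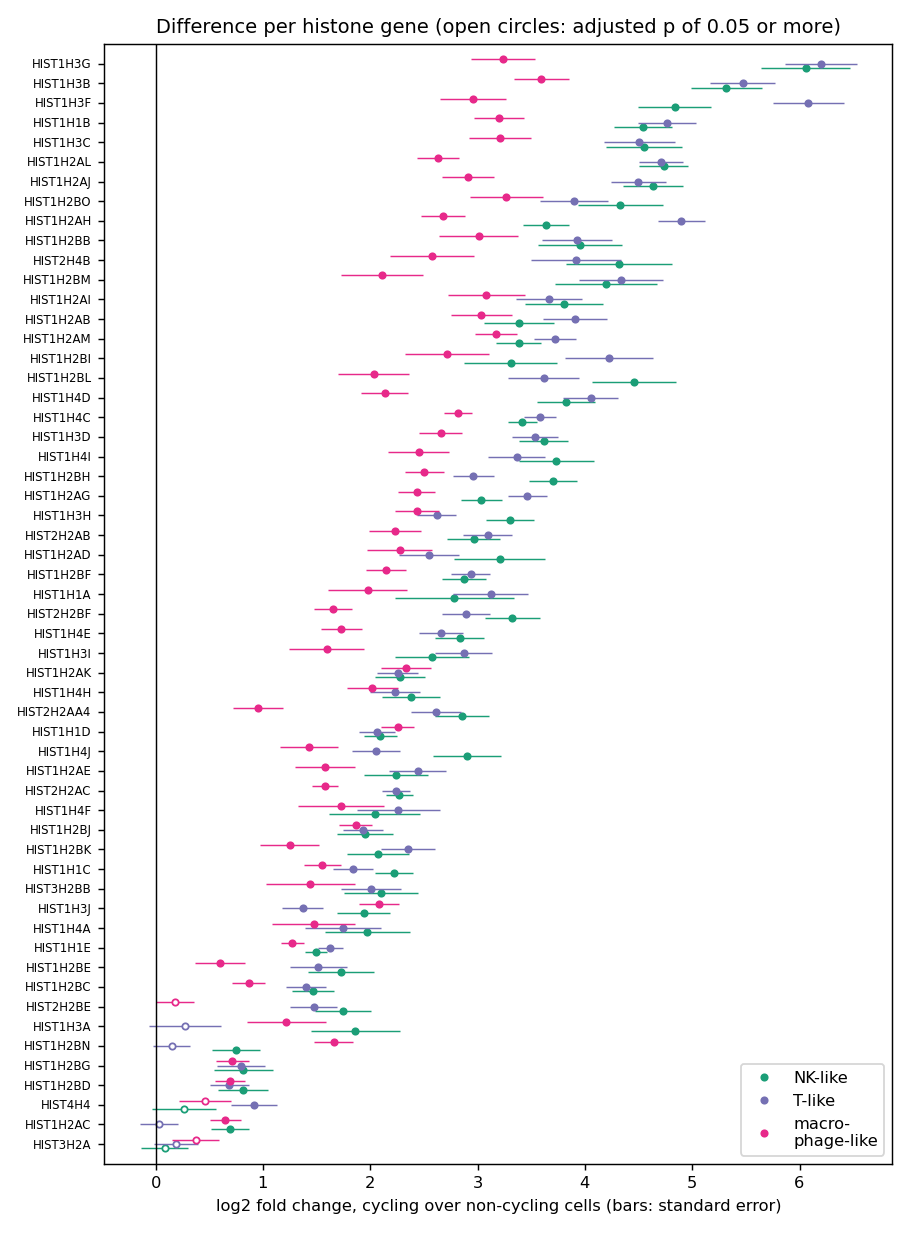
Fitted log2 fold change of cycling over non-cycling cells for the 56 histone genes that passed the low-count filter, in NK-like, T-like and macrophage-like cells, with bars of 1 standard error and open circles where the adjusted p was 0.05 or more. HIST1H3G stands at the top with 6.06, 6.20 and 3.24, and HIST3H2A is open in all 3 classes.

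The cycling difference itself varied among the classes for 27 of the 56 genes (edgeR's quasi-likelihood F test; 13.5% of all genes). Leaving the tumor-like sums out, an alternative chosen after seeing the data, 23 of the 49 genes then tested were called, and each of the 23 was among the 27. The macrophage-like change was the smallest of the 3 immune classes for HIST1H4C, HIST1H1B, HIST1H3B and HIST2H2AC (values above), and HIST1H2BN had its largest change in macrophage-like cells. Reaction 1 alone gave 17 such genes. Reaction 2 alone gave 8, over the 3 immune classes only, since its 6 cycling tumor-like cells made no sum. No share of all genes is given for the fits without the tumor-like sums or within 1 reaction, so their counts are not set against it.

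In non-cycling cells 41 of the 56 genes differed among the 4 classes, but so did 89.6% of all genes. In cycling cells 54 did, with 76.2% of all genes. Non-cycling cells are those under the cut of 3 UMIs, and some can still be in the cycle. Each class was then set against the mean of the other 3. Of 24 replication genes, 19 were higher and 0 lower in non-cycling NK-like cells and 6 and 5 in T-like cells. The counts were 3 and 10 in macrophage-like and 2 and 9 in tumor-like cells. Of 24 mitotic genes, 1 was higher and 7 lower in NK-like, 1 and 16 in T-like and 2 and 8 in macrophage-like cells. Their part in the histone differences was not tested. Non-cycling NK-like cells were higher for 7 and lower for 3 histone genes (27.9% and 32.5% of all genes). They were higher for HIST3H2BB (log2 difference 1.49), HIST3H2A (1.22), HIST1H1E (1.07), HIST1H1D (0.96) and HIST1H2AK (0.84), and lower for HIST1H2BD (-1.22), HIST1H2AC (-1.05) and HIST1H2BJ (-1.02). Non-cycling T-like cells were higher for 11 and lower for 11 (26.7% and 35.7%), led upward by HIST1H2BN (1.74 ± 0.17), HIST3H2BB (1.50 ± 0.43), HIST1H2AD (1.30), HIST3H2A (1.03) and HIST1H2AK (1.02). The largest lower values there, of HIST1H3F (-1.75), HIST1H3G (-1.32), HIST1H3C (-1.24), HIST1H2AH (-1.09) and HIST1H3B (-1.02), turned positive in reaction 2 alone. In that reaction only the fourth maraviroc mouse, with 19 non-cycling cells, stood for the tumor-like class in these contrasts.

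Non-cycling macrophage-like cells were higher for 3 genes, HIST1H2BG (1.46 ± 0.20), HIST2H2BE (0.99 ± 0.18) and HIST2H2BF (0.48), all of them H2B genes, and lower for 20 (38.8% and 33.1% of all genes). The largest of the lower ones were HIST1H2AI (-1.48), HIST1H3H (-1.30), HIST1H2AM (-1.24), HIST1H2AK (-1.18) and HIST1H4H (-1.17), of which HIST1H2AI was at 0.02 in reaction 2 alone. Scaled by library totals alone, the median of all genes in this contrast moved from 0.02 to -0.28. Non-cycling tumor-like cells were higher for 20 genes, among them HIST1H2AC (2.03 ± 0.16), HIST1H3C (2.50 ± 0.51), HIST1H3G (2.35 ± 0.67), HIST1H3F (1.90 ± 0.64) and HIST1H2AI (1.84 ± 0.57), and lower for 5, HIST1H2BG (-1.75), HIST3H2A (-1.56), HIST1H2BN (-0.96), HIST1H1D (-0.60) and HIST1H1E (-0.35), with 30.6% and 22.8% of all genes. The 3 H3 genes and HIST1H2AI turned negative in reaction 2 alone, and HIST1H2AC did not. There only the fourth maraviroc mouse, with 19 non-cycling cells of this cluster, entered the fit for it. In the same comparison 20 of 24 mitotic genes were higher in the tumor-like cells, and their part in the histone difference was not tested.

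In cycling cells, 45 histone genes were higher and 1 lower in NK-like cells (21.5% and 21.8% of all genes), and 38 were higher and 1 lower in T-like cells (22.2% and 19.7%). Macrophage-like cells were higher for 3 and lower for 26 (29.1% and 22.4%), and tumor-like cells for 0 and 14 (11.8% and 4.14%). HIST1H4C was 1.10 ± 0.13 higher in NK-like and 0.89 ± 0.14 higher in T-like cells, and 0.86 lower in macrophage-like cells (log2 difference -0.86 ± 0.13). The largest fits for NK-like cells were HIST1H4I (3.01), HIST1H2BI (2.91), HIST1H4A (2.90), HIST1H3A (2.77) and HIST2H2BE (2.61), and for T-like cells HIST1H1A (3.20), HIST1H4I (2.93), HIST1H2BI (2.53), HIST2H2BE (2.12) and HIST3H2BB (1.62). Of these, all but HIST3H2BB had no UMI in the tumor-like cycling sums, so these fits, and those of HIST1H4I (-7.10) and HIST2H2BE (-6.66) in tumor-like cells, depend on how a count of 0 is treated and are no bounds. HIST2H2AA4 (-2.68), HIST1H4D (-2.10) and HIST1H1B (-1.95) were the next lowest in tumor-like cells. The genes called lower were HIST1H2BD (-0.85) in NK-like and HIST1H2AC (-0.63) in T-like cells. Cycling macrophage-like cells were higher for HIST2H2BE (1.93), HIST1H2BG (1.43 ± 0.34) and HIST1H2BD (0.46), and the largest lower values were those of HIST1H3I (-1.61), HIST1H2AI (-1.34), HIST1H2AH (-1.34), HIST1H3F (-1.33) and HIST1H2AL (-1.24). With the tumor-like sums left out, each of the 3 immune classes was set against the mean of the other 2 over 49 histone genes. Higher and lower calls then numbered 11 and 5 in non-cycling NK-like, 13 and 4 in T-like and 7 and 21 in macrophage-like cells. In cycling cells they numbered 42 and 2, 31 and 2, and 4 and 41. The shares of all genes called in these contrasts are not given, so the counts cannot be read as particular to histone genes. HIST2H2BE was then at -0.096 in cycling T-like and -0.33 in cycling macrophage-like cells. The 4 contrasts share their sums and are not independent of each other.

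Cells were next placed along the cycle without any histone gene, TOP2A or MKI67. A list of 24 replication genes and one of 24 mitotic genes were counted in each cell with at least 6 UMIs over both, and a cell was called S-rich when at least 66.7% of these UMIs were of replication genes and M-rich when at most 33.3% were. Histone transcripts were lower in the S-rich cells. In NK-like cells the sum ran from 864 through 1578 to 4415 CPM in S-rich (n = 14) and from 2842 through 6783 to 10671 CPM in M-rich cells (n = 11). In T-like cells it ran from 915 through 1642 to 2944 CPM (n = 11) and from 2659 through 4197 to 8680 CPM (n = 10). In macrophage-like cells it ran from 388 through 742 to 1571 CPM and from 1284 through 2261 to 4383 CPM (n = 13 each). The ranges overlapped in each class. The bins rest on raw counts, so depth can enter the placement. Pooled over mice, the median was 9462 UMIs in S-rich and 10685.5 in M-rich NK-like cells. It was 9351 and 8850 in T-like and 12298 and 6623 in macrophage-like cells. S-rich is the name of a bin, and whether its cells were in S phase was not measured. The part of depth in the placement was not tested.

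By edgeR's quasi-likelihood test over the 3 immune classes, 53 of 54 histone genes tested were lower in S-rich than in M-rich cells, where 11.0% of all genes were lower and 18.5% higher. The differences were -1.69 ± 0.13 for HIST1H4C and -1.43 ± 0.10 for HIST1H1C, and HIST3H2BB (-2.20), HIST1H2AI (-2.17), HIST1H2BI (-2.13), HIST1H2BH (-2.12) and HIST1H2BB (-2.09) had the largest. HIST1H3I did not pass the test (-0.68, adjusted p = 0.0501). Most S-rich cells did not meet the cycling definition, which 27.7% of them met in NK-like, 25.4% in T-like and 22.7% in macrophage-like cells, and TOP2A and MKI67 are both known as late-cycle transcripts.

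The comparison was therefore repeated within cycling cells alone, an alternative chosen after seeing the data. Sums of at least 5 cells were used for it, a lower limit than in the main comparison. Here 32 of 33 histone genes tested were lower in S-rich cells, with 16.6% of all genes lower and 17.6% higher. HIST1H2BD (-1.95), HIST1H2AC (-1.79), HIST1H4H (-1.44), HIST1H2BH (-1.40) and HIST2H2BF (-1.39) had the largest differences, and HIST1H2AH did not pass the test (-0.29, adjusted p = 0.148). Pooled over mice, cycling NK-like cells held 4028 CPM in the S-rich, 9638 in the middle and 8091 in the M-rich bin, T-like cells 3546, 9173 and 6379 CPM, and macrophage-like cells 1474, 4083 and 2597 CPM. In mice with at least 5 cycling cells in each bin, the middle bin was the highest in 6 of 10 mice in NK-like, 10 of 10 in T-like and 12 of 12 in macrophage-like cells, with medians over mice of 3386, 9544 and 7400 CPM, of 3674, 8518 and 5931 CPM, and of 1581, 4158 and 2651 CPM for the S-rich, middle and M-rich bins. The S-rich bin was the lowest in 10 of 10, 10 of 10 and 11 of 12 mice. In non-cycling cells the pooled sums were 978, 1378 and 2372 CPM in NK-like, 969, 1149 and 1378 CPM in T-like, and 535, 1084 and 1349 CPM in macrophage-like cells, so in these pooled sums the M-rich bin was the highest. They mix the reactions and are not given per mouse. The macrophage-like bins had medians of 11722, 4399 and 2869 UMIs, and the part of reaction and depth was not tested.

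**Figure D4:**
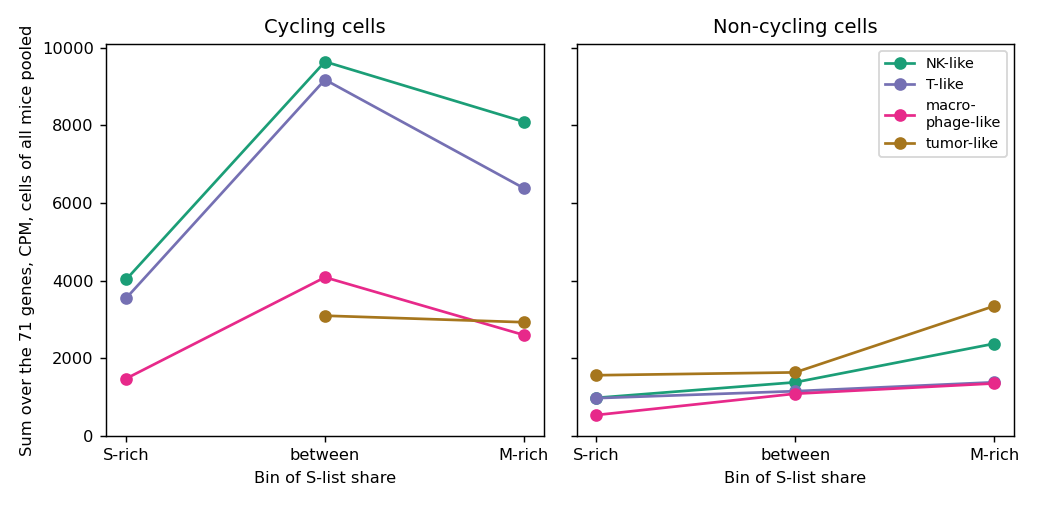
Histone sum in CPM, pooled over the cells of all mice, in the S-rich, middle and M-rich bins of the share of replication-gene UMIs, in cycling (left) and non-cycling cells (right) of each class, with no tumor-like S-rich cycling point because under 10 cells fell there. In cycling NK-like, T-like and macrophage-like cells the middle bin is the highest, at 9638, 9173 and 4083 CPM.

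Genes that make, process and carry histones were read beside them. The list of processing and transcription factors had 12 of 13 genes tested, of which 7 rose in cycling NK-like, 6 in T-like and 7 in macrophage-like cells and none in tumor-like cells, with none lower. SLBP went from a median of 91.4 to 125 CPM in NK-like, from 97.6 to 151 CPM in T-like and from 59.7 to 94.5 CPM in macrophage-like cells, or by 0.32 ± 0.10, 0.68 ± 0.10 and 0.42 ± 0.09 on the log2 scale. Unlike the histone genes, SLBP was higher in S-rich than in M-rich cells (1.20 ± 0.09). LSM10, a part of the U7 particle that cuts histone pre-mRNA, did not pass the test in any class.

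The 10 genes listed as replication-independent histones have mRNAs that mostly carry a regular poly(A) tail. In S-rich against M-rich cells 7 of the 10 were lower and 1 was higher, with a median log2 difference of -0.70 (11.0% and 18.5% of all genes). Of these genes 7, 7, 6 and 1 rose in cycling NK-like, T-like, macrophage-like and tumor-like cells. H2AFZ, which encodes H2A.Z, rose from 222 to 932, from 218 to 891 and from 194 to 819 CPM in the 3 immune classes, or by 2.01, 2.14 and 1.89 on the log2 scale, while H3F3B, which encodes H3.3, was at 1209.5 and 1270.3 CPM in NK-like cells and did not pass the test in any class. Of 15 chaperones, 10, 11, 11 and 1 rose, and ATRX was lower in T-like cells (-0.31 ± 0.08). NASP, which carries H3 and H4, went from 239 to 409 CPM in NK-like cells and was higher in S-rich cells (0.93 ± 0.05), whereas ANP32E, a chaperone of H2A.Z, went from 139.7 to 402 CPM and was lower in S-rich cells (-1.19 ± 0.06). Of the replication list 20, 24, 24 and 0 of 24 genes rose in cycling cells, and of the mitotic list 24, 24, 24 and 13. The shares of all genes higher in cycling cells are those given above beside the processing list. The state was cut on TOP2A plus MKI67, known as late-cycle transcripts, so the mitotic counts are not independent of that cut.

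Maraviroc was compared with no treatment across mice in each class and state, with the reaction as a covariate. The median histone sum of untreated and maraviroc mice was 1217 and 1054 CPM in non-cycling and 7117 and 7144 CPM in cycling NK-like cells, 1003 and 1076 CPM and 6299 and 6082 CPM in T-like cells, 567 and 520.3 CPM and 2211 and 2949.8 CPM in macrophage-like cells, and 1915 and 1393 CPM in non-cycling tumor-like cells. The treatment groups overlapped in each of these. In cycling tumor-like cells only untreated mice had enough cells, and no comparison was made.

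No histone gene was called by edgeR's quasi-likelihood test with Benjamini-Hochberg adjustment in any of the 7 comparisons, which called 0.00% of all genes, and DESeq2 called none of them either. At an unadjusted p under 0.05 the count was 0 of 10 histone genes tested in non-cycling (3.71% of all genes) and 1 of 30 in cycling NK-like cells (5.38%), 3 of 25 in non-cycling (4.69%) and 1 of 41 in cycling T-like cells (5.70%), 1 of 23 in non-cycling macrophage-like cells (4.29%) and 1 of 8 in non-cycling tumor-like cells (4.71%). In cycling macrophage-like cells it was 8 of 25, with 4.64% of all genes. These were HIST2H2BF, HIST1H2BC, HIST1H2BD, HIST1H2BF, HIST1H2BG, HIST1H2BN, HIST1H3G and HIST1H2AJ, with log2 differences of 0.46 to 0.70 and adjusted p = 0.975 in edgeR's quasi-likelihood test, and they are named after their values were seen. In the same comparison 7 of 24 mitotic genes and 0 of 22 replication genes had an unadjusted p under 0.05, with a median difference of 0.29 for the mitotic list and 0.30 for the 25 histone genes, and its part was not tested. The fitted differences of the 25 genes ran from 0.05 to 0.70 with standard errors of 0.15 to 0.33.

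HIST2H2BF gives the scale of these values: in cycling macrophage-like cells it ran from 10.3 through 19.5 to 31.5 CPM in untreated and from 18.9 through 27.4 to 49.7 CPM in maraviroc mice (n = 7 each). Within reactions its medians were 24.5 and 30.3 CPM in reaction 1 and 16.3 and 26.8 CPM in reaction 2. The groups overlapped over both reactions. The fitted range was -0.35 to 0.31 in cycling NK-like cells, -0.33 to 0.40 in cycling T-like cells and -0.73 to -0.23 in non-cycling tumor-like cells, with standard errors up to 0.56, so differences of this size were not resolved.

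The share of cycling cells was compared over mice with at least 20 cells of the class. Untreated mice had 18.8% ± 3.64 (SD, n = 5) cycling cells in the T-like class, from 13.9% to 23.5%, and maraviroc mice 12.9% ± 2.0 (SD, n = 7), from 9.39% to 15.6%. The difference of -5.95 points had an adjusted p = 0.0152 over the 4 classes (p = 0.00379, exact two-sided permutation test), and was -7.00 points in reaction 1 and -4.44 points in reaction 2. The ranges overlapped. With cells thinned to 1500 UMIs the difference was -5.35 points with adjusted p = 0.0707 in the exact permutation test. There the state was called anew, at any UMI of TOP2A or MKI67 among the 1500, so definition and depth changed together. The T-like class held 3 clusters, and the one with CD8A and CD8B among its leading genes, in which 25.1% of cells were cycling, made up a mean of 44.1% of the class in untreated and 30.1% in maraviroc mice, while in those with FOXP3 and with CXCL13 among theirs 10.0% of cells each were cycling. Taken alone, an alternative chosen after seeing the data, these clusters differed by -7.63, -2.36 and -2.71 points (adjusted p = 0.19, 0.344 and 0.476, exact permutation test), so that a change in cycling within a cluster and a change in the mix of clusters cannot be told apart here. In the same test NK-like cells differed by -0.04 points (adjusted p = 0.992; -0.92 and -0.09 in the 2 reactions) and macrophage-like cells by 1.36 points (adjusted p = 0.857; 3.02 and -2.47). Tumor-like cells differed by -10.9 points (adjusted p = 0.457), with too few mice of reaction 2 for a value there.

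**Figure D5:**
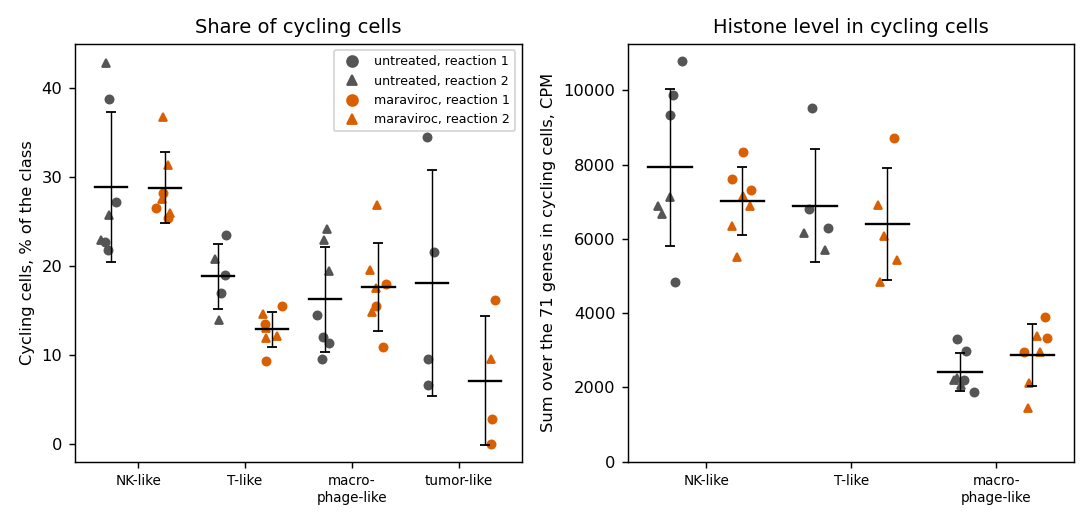
Share of cycling cells in percent of the class (left) and histone sum of cycling cells in CPM (right) per mouse in untreated and maraviroc mice, with the mean and SD as lines and circles and triangles for reactions 1 and 2. The share of cycling T-like cells is 18.8% in untreated and 12.9% in maraviroc mice, and the histone sums of the 2 groups overlap in each class.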

How the data were processed

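Single-cell libraries were made with a 3' droplet kit and oligo-dT priming, and the authors deposited UMI counts per gene and per hashtag antibody for each barcode. The sources name Cell Ranger 9.0.1, GRCh38 and Seurat 5.1.0. Columns of hashtag counts served to assign cells to mice. Here hashtags were called with HTODemux (Seurat 5.3.0, quantile 0.99), doublets and negatives were left out, and cells were clustered with scanpy 1.11.5 after leaving out 369 genes that follow the cell cycle. A cluster was named when its marker score was at least 0.5 and 0.75 above the next list, with at least 3 markers detected and no other list holding more of the 10 leading genes. The 20 highest histone genes by mean CPM, the 5 largest called changes per comparison and direction, and genes with no UMI are named. The genes and lists were chosen with earlier results of these data known.

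Counts summed per mouse, class and state were tested with edgeR 4.0.16 (quasi-likelihood, TMM, low-count filter) in R 4.3.3, with the mouse as a block, since both states come from the same animal, or, for maraviroc, with the reaction as a covariate. Calls were made at an adjusted p under 0.05. Shares of cycling cells were compared by exact permutation over mice. Alternatives were DESeq2 1.42.0, other scalings and filters, other cycling thresholds, a marker gate per cell, thinning to 1500 UMIs, 1 reaction, and each mouse left out. On simulated counts for the T-like cycling comparison (11907 genes), 80% of 200 genes changed by 1 log2 unit were found, with 12 false calls. For maraviroc in non-cycling macrophage-like cells (9588 genes) 94% were found with 13 false calls, and for S-rich against M-rich cells (10971 genes) 85% with 7. UMI totals ranged from 133089612 to 175447534 per reaction. No sequences or coordinates were used.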

Additional observations from a re-analysis of the deposited data

Results flagged for a closer look

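Of 92 groups of 4 to 7 mice, 10 held a mouse whose value lay far from the others by Dixon's criterion, which chance alone meets in about 1 in 20 groups. The groups are not independent, since they share mice and the histone sum contains the single genes. In maraviroc mice the third of reaction 1 had a histone sum of 1058 CPM in non-cycling macrophage-like cells, beside 428 to 598 CPM in the other mice, and a HIST1H1C level of 151 CPM there, beside 51.1 to 92.4 CPM. The first maraviroc mouse of reaction 1 had 312 CPM of HIST1H1C and 156 CPM of HIST2H2AC in non-cycling T-like cells, beside 161 to 199 and 45.5 to 74.5 CPM. The second had 82.8 CPM of HIST1H1D in non-cycling T-like cells, beside 146 to 182 CPM, and 179 CPM of HIST1H4C in non-cycling tumor-like cells, beside 329 to 346 CPM. HIST1H1C reached 1144 CPM in the tumor-like cells of the fourth maraviroc mouse of reaction 2, beside 172 to 322 CPM, and 796 CPM in those of the third untreated mouse of reaction 1, beside 178 to 250.3 CPM. The latter mouse also had 835 CPM of HIST1H1D in cycling T-like cells, beside 536 to 619 CPM. The second untreated mouse of reaction 1 had 61.3 CPM of HIST1H1E in cycling macrophage-like cells, beside 102 to 121 CPM.

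Of the 20 histone genes with the highest mean CPM, 15 had a cycling difference that varied among the 4 classes. The interaction test was edgeR's quasi-likelihood F test with Benjamini-Hochberg adjustment over all genes. It called 27 of the 56 histone genes tested, and 13.5% of all genes. Histone genes named above but outside those 20, such as HIST2H2AA4 and HIST1H3F, are also among the 27. The adjusted p was 5.62e-07 for HIST1H4C, 0.00421 for HIST1H1C and 8.34e-05 for HIST1H1B. Among H2A genes it was 2.16e-09 for HIST1H2AL, 1.29e-06 for HIST1H2AH, 6.62e-05 for HIST1H2AJ, 0.00164 for HIST2H2AC, 0.00416 for HIST1H2AG, 0.0158 for HIST1H2AC and 0.0283 for HIST1H2AM. It was 9.4e-05 for HIST1H2BN and 0.000811 for HIST1H2BH among H2B genes, and 8.17e-06 for HIST1H3G, 2.76e-05 for HIST1H3B and 0.00804 for HIST1H3D among H3 genes. The causes of these differences were not tested.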

How the results depend on the processing

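No histone gene was called lower in cycling NK-like, T-like or macrophage-like cells under any alternative run. With cells thinned to 1500 UMIs 20, 20 and 21 of 21 genes tested were called, fewer because fewer passed the filter; none was called in tumor-like cells, and 12, 19, 13 and 18 were called for non-cycling classes, cycling classes, the difference of the cycling effect and S-rich against M-rich cells. The tumor-like count of 3 was 5 with library totals alone, 10 without the low-count filter, 8 with no replicate block, 10 and 0 with cycling at 2 and 5 UMIs, 1 in reaction 1 alone, 6 with DESeq2, and 1 to 5 with a mouse left out (1 without untreated mouse 1 or 4 or maraviroc mouse 2 of reaction 1, 5 without its untreated mouse 3). Without the block no other count moved by over 1.5 times, and HIST1H1D in tumor-like cells (1.39) passed the test that it did not pass with it. Non-cycling classes differed for 27 genes in reaction 1 alone. The cycling effect differed among classes for 15 genes with the marker gate, 17 in reaction 1 and 8 in reaction 2, which had no cycling tumor-like sum. The S-rich count of 53 was 30 of 30 with the marker gate, 33 of 33 in reaction 2 and 32 in cycling cells alone, an alternative chosen after seeing the data. Leaving out a mouse gave counts of 53 to 54, 52 and 51 to 53 for the 3 immune classes, 23 to 29 for the difference of the cycling effect and 50 to 54 for S-rich cells. Except for the fit in cycling cells alone, no share of all genes is given for these alternatives. Their counts therefore cannot be read as particular to histone genes.

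The drop in cycling T-like cells was -5.35 points when thinned (adjusted p = 0.0707, exact permutation). For the thinned shares cycling was called at any UMI of TOP2A or MKI67 in the thinned counts. With a mouse left out the drop was -7.18 to -4.80 points (adjusted p = 0.0121 to 0.0433, exact permutation). It was -7.14 and -3.51 points with cycling at 2 and 5 UMIs (adjusted p = 0.0152 and 0.0303), and -7.63, -2.36 and -2.71 points in the T-like clusters with CD8A, FOXP3 and CXCL13 among their leading genes, each alone. The NK-like share difference, near 0, was 1.26, 0.0294 and 0.106 points with cycling at 2 or 5 UMIs and thinned, and -1.36 to 2.29 with a mouse left out; the macrophage-like one was -0.181 to 2.68 and the tumor-like one -14.7 to -5.45. HIST1H2AC in T-like cells was -0.0104 without the filter, -0.0125 in DESeq2, -0.18 with the marker gate, -0.12 with cycling at 2 UMIs, -0.11 in reaction 2 and -0.13 to 0.11 with a mouse left out. HIST1H1C in tumor-like cells was -0.048 thinned, -0.0896 with cycling at 2 UMIs and -0.15 to 0.67 with a mouse left out (-0.15 without untreated mouse 4 of reaction 1, 0.67 without maraviroc mouse 4 of reaction 2).

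In non-cycling T-like cells against the other classes, the marker gate and reaction 2 gave 0.14 and 1.55 for HIST1H2AH, 1.10 and 0.32 for HIST1H3C, and 0.65 and 0.61 for HIST1H3G, and reaction 2 gave 0.11 for HIST1H3B and 0.96 for HIST1H3F. Reaction 2 gave 0.0194 for HIST1H2AI in macrophage-like cells and -3.25 in tumor-like cells. In reaction 2 the tumor-like class entered these fits only through the 19 non-cycling cells of the fourth maraviroc mouse. In tumor-like cells the marker gate and reaction 2 gave -3.99 and -2.23 for HIST1H3C, -3.73 and -1.81 for HIST1H3F, and -4.04 and -2.36 for HIST1H3G. Without the tumor-like sums, HIST2H2BE was -0.0963 in cycling T-like and -0.33 in cycling macrophage-like cells. The cause was not tested.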

Other observations

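Clusters outside the 4 classes also held histone transcripts. Non-cycling monocyte-like cells had sums from 361 through a median of 516 to 688 CPM (n = 14 mice), with medians of 47.0 CPM for HIST1H4C and 120.4 CPM for HIST1H2AC. Dendritic-like cells had 347 through 599 to 1811 CPM, B-like cells 619 through 958.5 to 1854 CPM (n = 11) and mast-like cells 320.5 through 803 to 2415 CPM (n = 10), with a median of 214 CPM of HIST1H4C in the last. These values entered no test.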
